A study of Mus musculus with 24 samples.

Results

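Hippocampal slices from Tsc2+/- mice were treated with 3,5-dihydroxyphenylglycine (DHPG, 100 µM for 5 min), an agonist of the group I metabotropic glutamate receptors, or with artificial cerebrospinal fluid as vehicle, and messenger RNA and ribosome-protected fragments (RPFs) were sequenced from the same lysates. These slices account for 12 of the 24 samples of the series, with 3 vehicle and 3 DHPG libraries of RNA and the same numbers of RPF, taken by genotype and treatment in the sample names. The Tsc2+/- mice carry a germline heterozygous deletion made with a CMV-Cre line and a floxed Tsc2 allele and were bred on C57BL/6J, so that every cell type of the slice has the deletion. The animals were males of postnatal days 28 to 42 per the labels, CA3 had been cut off, and slices of several mice were pooled per library. All groups, vehicle included, were lysed in buffer with cycloheximide, which holds ribosomes on the mRNA. The other 12 samples are wild-type (WT) littermates under the same treatments and are used here only where the DHPG effect of the genotypes is set side by side.

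Group I receptors, among them mGluR5 (encoded by Grm5), couple through Gq to phospholipase C and to the PI3K, mTOR and ERK pathways, and their brief activation in CA1 induces a long-term depression (mGluR-LTD) that needs new protein synthesis. TSC2, with TSC1, forms the complex that restrains the GTPase RHEB and through it mTORC1. The comparison asks which mRNAs change in level (RNA), in ribosome occupancy (RPF) or in the ratio of both (translational efficiency, TE, RPF minus RNA on the log2 scale) within minutes of receptor activation when a Tsc2 allele is missing.

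Total counts were between 20433328 and 22722699 in the Tsc2+/- RNA libraries and between 5397053 and 10369602 in the RPF libraries. Tsc2 itself was at 136, 128 and 137 CPM (counts scaled to the library total) in the RNA of vehicle libraries 1 to 3 and at 129, 133 and 135 CPM in DHPG libraries 1 to 3, against means of 191 ± 4.64 (SD, n = 3) and 205 ± 8.19 CPM (SD, n = 3) in WT. Its RPF level was 79.4 ± 1.69 CPM in vehicle and 81.3 ± 4.27 CPM in DHPG (SD, n = 3 each), below the 133 ± 6.95 CPM of WT vehicle (SD, n = 3). The Tsc2+/- libraries of both treatments thus carried the lower Tsc2 level of their label, and DHPG against vehicle gave log2 fold changes of -0.02 ± 0.05 (SE) for Tsc2 RNA and 0.03 ± 0.08 (SE) for its RPF. In the RPF libraries of replicates 2 and 3, between 97.9% and 98.2% of the Tsc2+/- counts were even numbers, while about equal shares of odd and even counts were found in replicate 1 and in RNA; counts of these libraries were also analysed after halving. Choroid plexus markers stayed near 0, with summed levels of 18.6 to 28.9 CPM in RNA and with 2 of 12 markers at 0 in all Tsc2+/- libraries of each assay.

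No mRNA passed the test for a DHPG effect in Tsc2+/- slices in RNA, RPF or TE. A call needed an adjusted p under 0.1 in edgeR's quasi-likelihood test with the replicate number as a block, and 0 of 14516 genes in RNA, 0 of 12877 in RPF and 0 of 12785 in TE reached it (0.0% in each), with a smallest adjusted p of 0.9998, 0.9999 and 0.9993. DESeq2 with the same model also called 0 genes in each measure. At an unadjusted p under 0.05, edgeR had 313 genes higher and 314 lower after DHPG in RNA, or 2.16% of the tested genes in either direction. In RPF 277 were higher (2.15%) and 242 lower (1.88%), and in TE 252 were higher (1.97%) and 220 lower (1.72%). Counts of list members at this p are read against these shares below. The lists were chosen with earlier results of these data known, so such readings are descriptions and not tests. The fit shared its estimate of spread with the WT libraries. A fit of the 6 Tsc2+/- libraries of each assay alone called 2 genes in RNA (Nptxr and Pcdha6-g), 7 in RPF and 1 in TE (Pcsk1n). The adjusted p in edgeR was 4.4e-08 for Nptxr RNA and 2.3e-07 for Pcdha6-g RNA, with log2 fold changes of 0.52 and 8.94. For Pcsk1n TE it was 0.026, with a log2 value of -0.38. The 7 in RPF were Nptxr (adjusted p = 0.0089 in edgeR), Atp6v0c, Cnp, Fa2h and Syngr3 (each 0.053) and Grp and Mbp (each 0.072). Leaving out WT vehicle library 1 gave 5 RPF calls, Nptxr, Atp6v0c, Cnp, Syngr3 and the read-through gene Nup62-il4i1, while over the other single libraries left out the RPF count was 0 to 2.

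The fitted differences were small as well as uncalled. From the 5th to the 95th percentile, log2 fold changes ran from -0.32 to 0.35 in RNA, from -0.33 to 0.30 in RPF and from -0.42 to 0.37 in TE, beside median standard errors of 0.11, 0.13 and 0.16. The 95% interval lay within a doubling and a halving for 87.5% of the genes in RNA, 89.7% in RPF and 84.9% in TE, and within ±0.5 on the log2 scale for 71.4%, 66.7% and 55.9%. Larger point estimates were found mainly among mRNAs of low level, as the plot of change against level shows. The WT slices, fitted in the same model, had 936 genes at an unadjusted p under 0.05 in RNA, 864 in RPF and 1159 in TE, against 627, 519 and 472 in Tsc2+/-, with 0, 4 and 6 genes called. The test of the difference between the genotypes called 0 genes in RNA, RPF and TE (0.0% in each), and DESeq2 also called 0. In edgeR 503, 490 and 521 genes had an unadjusted p under 0.05. No gene's DHPG effect was thus shown to differ between Tsc2+/- and WT in these fits. Among 25 alternative fits of the RPF difference, 14 called at least 1 gene, and 11 called Nup62-il4i1. Its fitted log2 values of -15.6 to -14.2 are of a size that arises where a group has counts at or near 0.

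**Figure D1:**
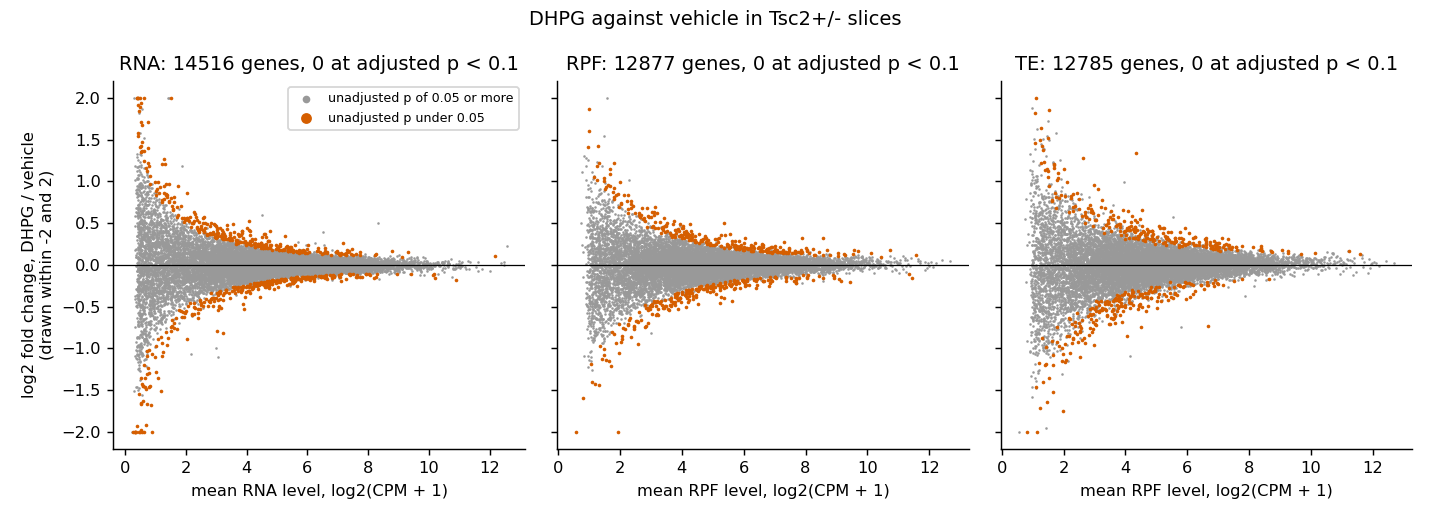
Log2 fold change of DHPG against vehicle in Tsc2+/- slices (y axis, drawn within -2 and 2) against mean level over the 12 libraries of the assay, as log2(CPM + 1) (x axis), for RNA, RPF and TE, with 1 point per gene and orange for an unadjusted p under 0.05. The spread narrows toward abundant mRNAs, both directions are alike in number, and none of the genes was called at an adjusted p under 0.1.

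Correlations between the differences of the 3 replicates were weak. Over the 10875 genes with a mean of at least 5 CPM in RNA, the differences between DHPG and vehicle libraries of the same number had Pearson correlations of -0.02 (pairs 1 and 2), -0.002 (pairs 1 and 3) and -0.01 (pairs 2 and 3). Over 10577 genes in RPF they were 0.01, 0.07 and -0.03, and over 10038 genes in TE 0.04, -0.02 and 0.01. At a mean of at least 20 CPM the correlations of the same pairs were -0.06, -0.01 and 0.02 in RNA, 0.03, 0.13 and 0.03 in RPF and 0.08, 0.01 and 0.05 in TE. These correlations are across genes, which are not independent replicates, and are given as descriptions. Of all tested genes, 12.1% were higher and 12.4% lower in all 3 pairs in RNA, 14.2% and 13.9% in RPF, and 13.6% and 12.9% in TE, and counts of members moving 1 way in all pairs are read against these shares below. RNA and RPF differences, from separate libraries of the same lysates, had a Pearson correlation of 0.09 in Tsc2+/- over 10038 genes.

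The genes with the smallest p among those that moved 1 way in all 3 pairs, at a mean of at least 5 CPM, are described next. Their choice used the values shown, so these are descriptions of the leading genes and not findings, and none passed the adjusted test. Whether the groups of a named gene overlapped is likewise only described, here and below. The share of all tested genes without overlap was not counted. In RPF the highest-ranked gene was Grp, which encodes gastrin-releasing peptide, a neuropeptide. Its RPF level was 26.3, 34.5 and 35.9 CPM in vehicle libraries 1 to 3 and 41.6, 52.0 and 43.2 CPM in DHPG libraries 1 to 3. The groups did not overlap, and the log2 fold change was 0.51 ± 0.12 (SE), beside 0.12 ± 0.12 in WT. Syngr3 (chr17:24685092-24689949, mm10), which encodes the synaptic vesicle protein synaptogyrin 3, had RPF levels of 146, 141 and 143 CPM in vehicle and 170, 174 and 177 CPM in DHPG. All 3 DHPG libraries lay above all 3 vehicle libraries, with a log2 fold change of 0.28 ± 0.07 (SE) in RPF against -0.03 ± 0.05 in RNA. Nptxr, which encodes the neuronal pentraxin receptor, a synaptic membrane protein that binds other pentraxins, had 371, 322 and 319 CPM of RPF in vehicle and 505, 418 and 355 CPM in DHPG. DHPG was higher in each pair, but the groups overlapped. The RNA of Nptxr was higher in DHPG in each pair too, with 419, 152 and 165 CPM in vehicle and 571, 241 and 228 CPM in DHPG, so that replicate 1 stood at over 2 times the level of the others in both treatments. Nptxr (chr15:79786351-79804709) lies wholly within the annotated span of Npcd (chr15:79786351-79834333), and reads that fit both cannot be assigned with certainty. Fam212b, Blcap and Nudt16l1 completed the 6 higher genes in RPF with log2 fold changes of 0.32, 0.36 and 0.35.

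Among the 6 RPF levels that were lower, 2 belonged to myelinating cells. Fa2h, which encodes the fatty acid 2-hydroxylase that makes the hydroxylated lipids of myelin, was at 58.9, 46.1 and 64.5 CPM in vehicle and at 43.3, 34.4 and 47.0 CPM in DHPG, a log2 fold change of -0.43 ± 0.11 (SE). Cnp (chr11:100574909-100591875), encoding the myelin enzyme 2′,3′-cyclic nucleotide phosphodiesterase, was at 772, 651 and 780 CPM in vehicle and at 619, 602 and 676 CPM in DHPG, a log2 fold change of -0.21 ± 0.06 (SE). For both genes each DHPG library lay below its same-numbered vehicle library while the groups overlapped. Nrsn1 (chr13:25252039-25269996), which encodes the neuronal vesicle protein neurensin 1, had like values in both genotypes. Its RPF level was 46.1, 47.5 and 46.0 CPM in vehicle and 32.4, 34.0 and 39.4 CPM in DHPG, without overlap. The log2 fold change was -0.39 ± 0.11 (SE) in Tsc2+/- and -0.43 ± 0.11 (SE) in WT, the interval of the difference being -0.27 to 0.36. Nrsn1 RNA stayed at 368 ± 4.19 CPM in vehicle and 375 ± 16.0 CPM in DHPG (SD, n = 3 each), and its TE was lower by a log2 value of -0.41 ± 0.11 (SE). Plcl1, Plekhg1 and Socs5 had RPF log2 fold changes of -0.38, -0.45 and -0.47.

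In RNA, Slit2, which encodes a secreted axon guidance ligand, led the higher genes with 30.02, 38.7 and 31.5 CPM in vehicle and 44.4, 41.3 and 40.8 CPM in DHPG. Its log2 fold change was 0.34 ± 0.08 (SE), against -0.02 in WT. Amz1, Acot9, Iqgap1, Ttc28 and Fbxw9 followed with log2 fold changes between 0.37 and 0.49. Ppp3ca, the catalytic A subunit of the phosphatase calcineurin, led the lower genes, with RNA levels of 2114, 1861 and 2020 CPM in vehicle and 1811, 1791 and 1692 CPM in DHPG. The groups did not overlap, and the log2 fold change of -0.18 ± 0.05 (SE) stood beside -0.15 in WT. Ppp3ca RPF was not lower (-0.01 ± 0.05, SE), leaving a TE value of 0.17 ± 0.07 (SE). Atp2b1, which encodes a plasma membrane calcium pump, had an RNA log2 fold change of -0.16 ± 0.05 (SE), and Mak16, Nck2, Sipa1 and Prpf3 lay between -0.54 and -0.25. In TE, Fam212b and Syngr3 ranked highest and Socs5 and Nrsn1 lowest, all 4 of which also ranked among the 12 RPF genes. Cryzl1, 1810013L24Rik, Zak and Acp1 were the other higher genes in TE (log2 values of 0.32 to 0.91), and Zfp74, Fhod3, Adrbk2 and Pde4a the other lower ones (-0.69 to -0.34).

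**Figure D2:**
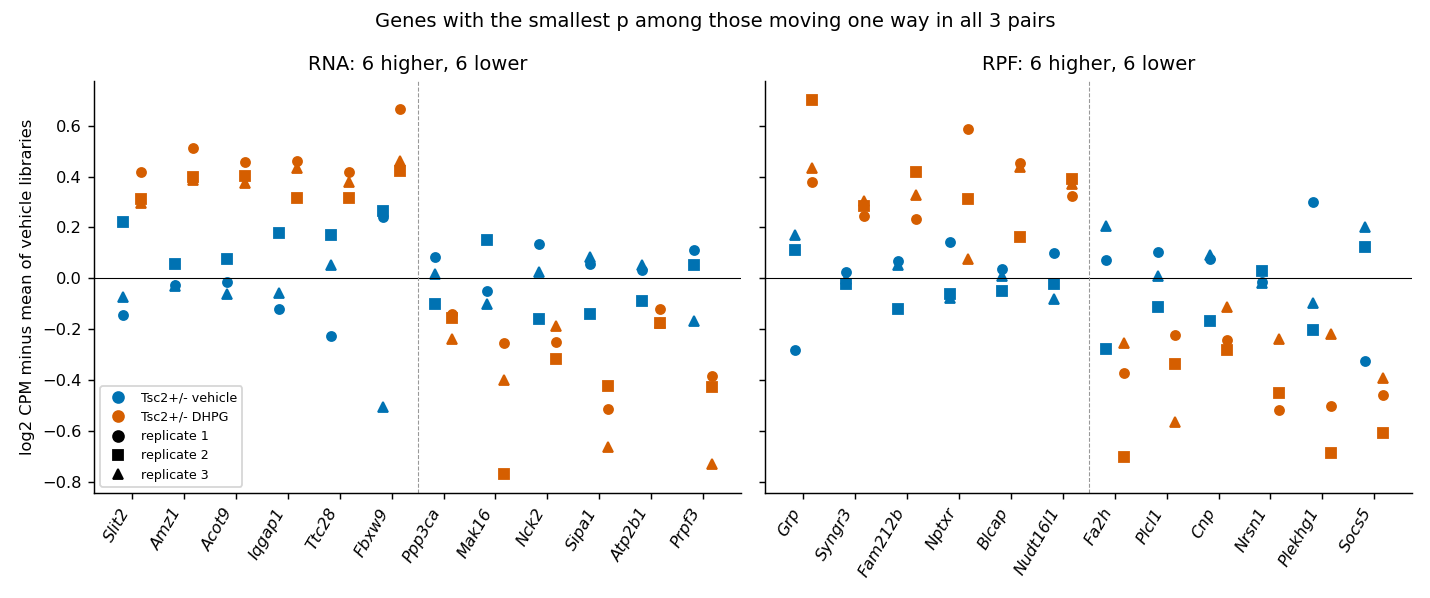
Level of the leading 12 RNA and 12 RPF genes in every Tsc2+/- library, as log2 CPM minus the mean of the 3 vehicle libraries (y axis), with blue for vehicle, orange for DHPG and the symbol for the replicate number. Values of vehicle and DHPG overlap for Nptxr, Fa2h and Cnp in RPF, and the genes were selected for the separation seen.

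The receptors, the TSC and mTOR proteins and the known effectors of mGluR-LTD gave no call. Grm5 RNA was at 352, 409 and 426 CPM in vehicle and 402, 399 and 392 CPM in DHPG, and its RPF log2 fold change was 0.04 ± 0.06 (SE, 95% interval -0.08 to 0.16). For Mtor the RPF log2 fold change was 0.05 ± 0.07, for Tsc1 0.04 ± 0.13 and for Rheb 0.02 ± 0.08 (SE). Of 51 tested genes of group I mGluR signalling, 12 were lower and 3 higher in RPF in all 3 pairs. The list median was -0.03 in log2 fold change, beside -0.001 for all genes. At an unadjusted p under 0.05, 3 were lower (1.88% of all genes) and 0 higher (2.15% of all genes). The lower members were Homer3, a postsynaptic scaffold that links the receptors to IP3 receptors (-0.53 ± 0.19, SE), Itpr2, which encodes an IP3 receptor of the endoplasmic reticulum (-0.28 ± 0.10, SE), and Stim2, a sensor of calcium in that store (-0.15 ± 0.07, SE). In RNA 2 members were lower and 0 higher at this p (2.16% of all genes in either direction), Camk2b among the lower ones (-0.12). The 30 genes of the TSC and mTOR complexes had 3 members higher in RPF at an unadjusted p under 0.05 (2.15% of all genes), Rhebl1, Eif4ebp2 and Prr5, of which all had under 9 CPM in every library. Eif4ebp2, the main brain form of the translation repressor 4E-BP, had RPF levels of 5.30, 3.71 and 4.42 CPM in vehicle and 5.43, 6.36 and 8.50 CPM in DHPG. Vehicle and DHPG did not overlap, but the lowest DHPG library exceeded the highest vehicle library by little. Its TE value of 0.68 ± 0.22 (SE) stood beside 0.02 in WT, with an adjusted p of 0.9993 in edgeR.

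Arc, which encodes an activity-regulated protein that promotes endocytosis of AMPA receptors and is translated during mGluR-LTD, was not higher after DHPG. Its RPF level was 71.1, 80.1 and 64.8 CPM in vehicle and 53.9, 67.7 and 61.6 CPM in DHPG. Each DHPG library was below its own vehicle library, with overlap between the groups, and the log2 fold change was -0.24 ± 0.09 (SE), beside -0.16 in WT. Arc RNA gave -0.10 ± 0.06 (SE). Map1b, which encodes a microtubule-associated protein known as a target of FMRP, had an RPF log2 fold change of 0.08 ± 0.12 (SE), and Ptpn5, which encodes the tyrosine phosphatase STEP, one of -0.11 ± 0.08 (SE). Among 31 tested LTD effector mRNAs, 2 were higher and 1 lower in RPF at an unadjusted p under 0.05 (2.15% and 1.88% of all genes), namely Mef2d (0.17), Sh3gl2 (0.12) and Arc, and the list median was -0.01. The 40 immediate early genes had a median of -0.05 in RPF and -0.03 in RNA, and 0 were higher and 3 lower in RPF at this p (Klf2, Sik1 and Arc). Fos RNA was at 128, 117 and 138 CPM in vehicle and 110, 109 and 163 CPM in DHPG. Fos, Egr1 and Npas4, transcription factor genes of the early response to activity, had RNA log2 fold changes of -0.02 ± 0.06, -0.07 ± 0.06 and -0.10 ± 0.11 (SE), with 95% intervals that ended at 0.11, 0.05 and 0.13. Of the 18 AMPA and NMDA receptor genes and their auxiliary subunits, 2 were lower in RPF at an unadjusted p under 0.05 (1.88% of all genes), Cacng3 (-0.24 ± 0.11, SE) and Grin2a (-0.13 ± 0.06, SE).

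**Figure D3:**
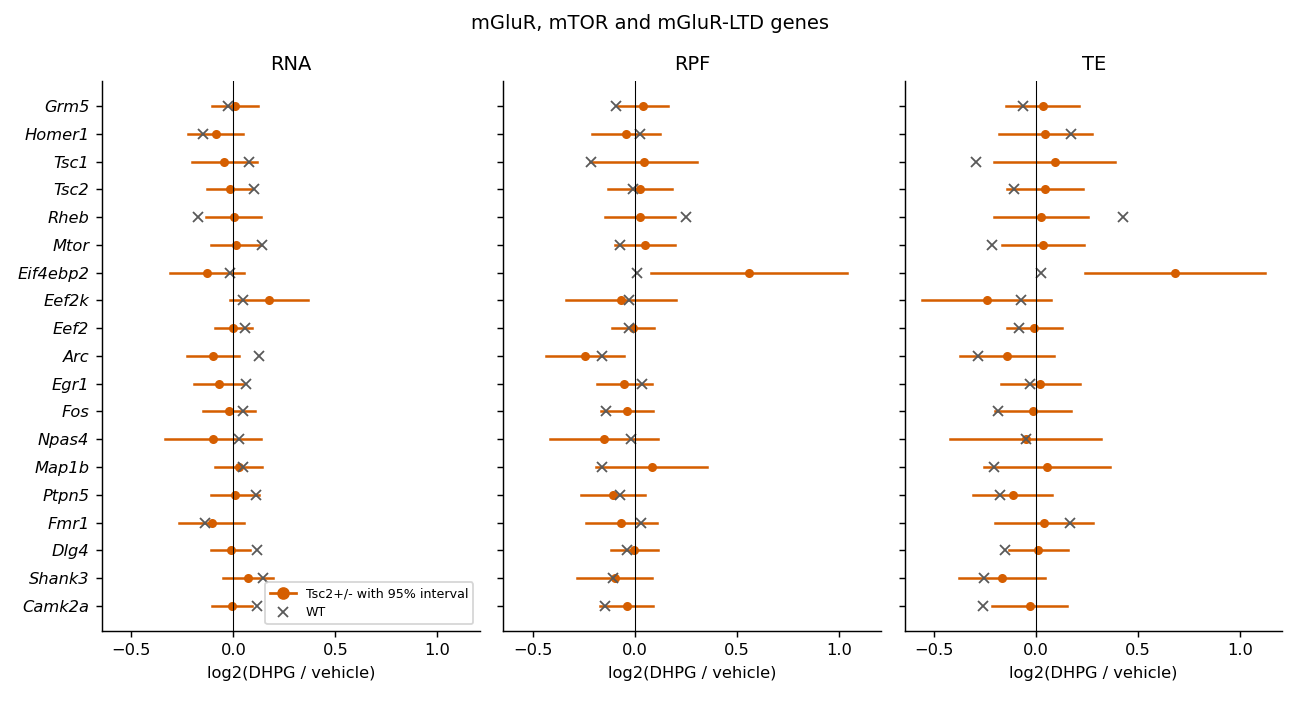
Log2 fold change of DHPG against vehicle (x axis) with its 95% interval in Tsc2+/- slices for genes of mGluR signalling, mTOR and mGluR-LTD (y axis) in RNA, RPF and TE, with crosses for WT. Intervals of all genes but Arc and Eif4ebp2 in RPF and Eif4ebp2 in TE include 0, and the crosses of several genes, such as Rheb in RPF and TE, lie outside the Tsc2+/- interval.

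Most genes of oligodendrocytes and myelin had lower RPF levels after DHPG in all 3 pairs. Of its 24 members, 12 were lower and 0 higher after DHPG at an unadjusted p under 0.05 (1.88% of all genes were lower at this p), and 18 were lower and 0 higher in all 3 pairs (13.9% of all genes). None was called. This list and its members were chosen with earlier results of these data known. Its counts beside the shares of all genes (1.88% and 13.9%) are therefore a description and not a test. The list median was a log2 fold change of -0.16 in RPF, with medians of -0.25, -0.09 and -0.14 in pairs 1 to 3, and 23 of 24 members were below 0. Besides Cnp, Mbp, which encodes myelin basic protein, had RPF levels of 632, 507 and 675 CPM in vehicle and 531, 464 and 586 CPM in DHPG (log2 fold change -0.19 ± 0.06, SE). Gpr37, an orphan receptor gene of oligodendrocytes, was at 95.8, 84.6 and 96.3 CPM in vehicle and 77.8, 72.5 and 78.1 CPM in DHPG, the groups being apart (-0.27 ± 0.09, SE). Olig2, a transcription factor gene of the lineage, was the member above 0 (0.09 ± 0.17, SE).

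The same list was less far from 0 in RNA. Its RNA median was -0.07, with -0.20, 0.04 and -0.02 in pairs 1 to 3, and 2 of 24 members (Mog and Opalin) were lower at an unadjusted p under 0.05, 7 being lower in all 3 pairs. In TE the median was -0.08, with 8 members lower in all pairs and 0 at an unadjusted p under 0.05. The summed level of the 24 genes was 8421, 7083 and 8688 CPM of RPF in vehicle and 6877, 6769 and 7852 CPM in DHPG, and in RNA it was 8484, 7379 and 8462 CPM against 7512, 7552 and 8048 CPM, both with overlap. Vehicle libraries 1 and 3 were the highest in both assays, also beside the WT libraries. In WT the RPF sums were 6735 to 7954 CPM in vehicle and 7030 to 7839 CPM in DHPG. Whether the lower values after DHPG come from high vehicle libraries was not tested. In WT the list had a median of -0.01 in RPF and 0.05 in RNA, and the median of the difference between genotypes was -0.15 in RPF, with 9 members lower in Tsc2+/- at an unadjusted p under 0.05 (251 of all 12877 genes) and 0 called. In bulk slices, fewer cells of a type and less RNA or fewer ribosomes per cell cannot be told apart, and the members share their cells and so are not independent. Leaving out replicate 1 brought the RPF median to -0.09, and leaving out replicates 2 or 3 to -0.20 or -0.19.

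**Figure D4:**
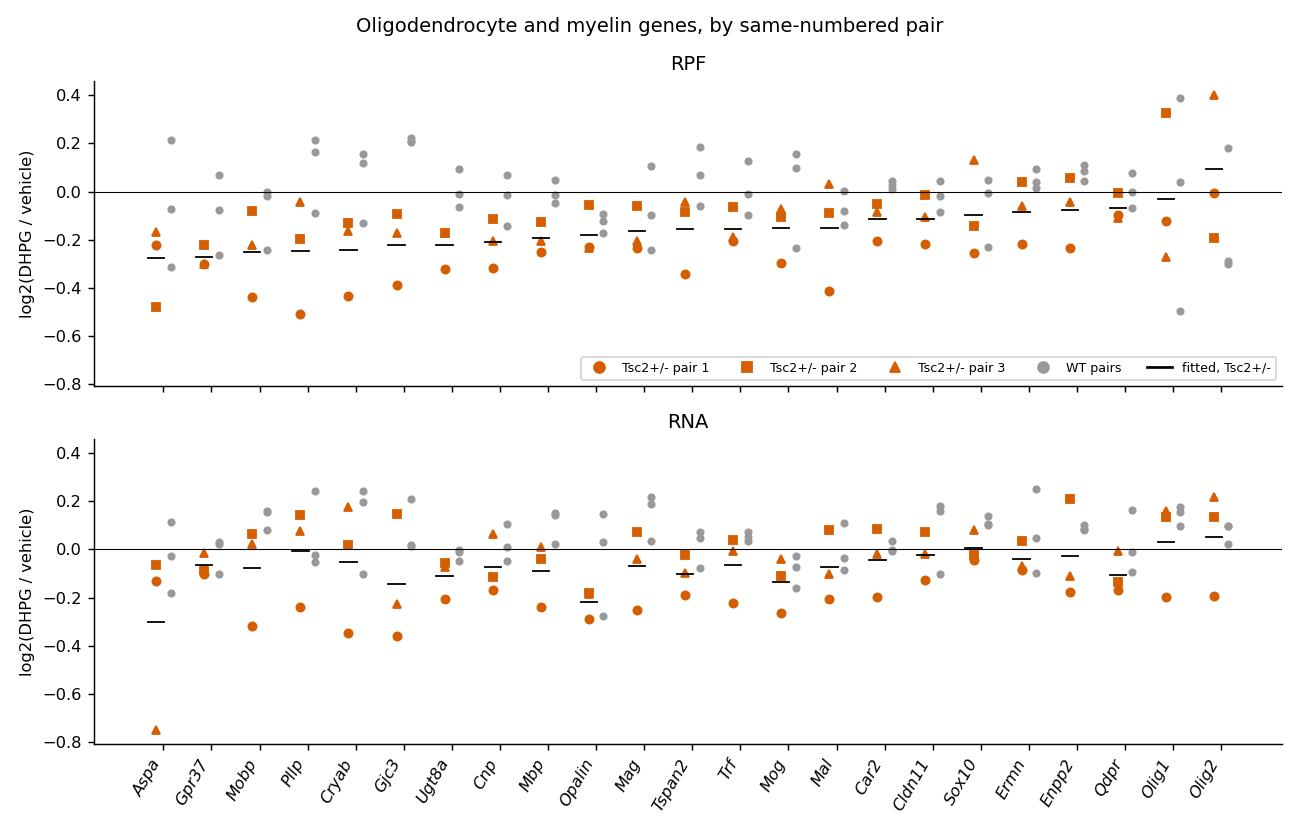
Difference of DHPG and vehicle in log2 CPM (y axis) for oligodendrocyte and myelin genes (x axis, ordered by fitted RPF change) in each same-numbered pair, for RPF (top) and RNA (bottom), with orange for Tsc2+/- pairs, grey for WT pairs and a bar for the fitted Tsc2+/- value. In RPF most genes lie below 0 in all 3 Tsc2+/- pairs (list medians -0.25, -0.09 and -0.14), and in RNA fewer do (list medians -0.20, 0.04 and -0.02).

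Other cell type markers were described beside it, because the makeup of slices can differ between libraries. Dentate granule cell markers, 14 tested, had an RPF median of -0.16 in Tsc2+/- and -0.12 in WT, with 3 lower at an unadjusted p under 0.05 (1.88% of all genes) and 6 lower in all 3 pairs (13.9% of all genes). Prox1, the transcription factor gene that marks these cells, was at 19.9, 20.2 and 19.2 CPM of RPF in vehicle and 13.2, 17.95 and 13.9 CPM in DHPG (-0.41 ± 0.14, SE), and Dsp, the gene of the junction protein desmoplakin, was at 4.05, 2.92 and 2.06 CPM in vehicle and at 1.11, 0.00 and 0.94 CPM in DHPG. The summed dentate markers were lower in DHPG without overlap in RPF (262 to 266 CPM in vehicle and 231 to 251 CPM in DHPG) and with overlap in RNA. CA3 markers, present although CA3 had been cut off, summed to 318 to 332 CPM of RNA in vehicle and 341 to 360 CPM in DHPG. Their log2 fold changes had a median of -0.02 in RNA, where 5 of 10 were below 0, of -0.09 in RPF, where 7 were, and of -0.16 in TE. Microglial markers had a median of -0.11 in RPF, with -0.28, 0.06 and -0.03 in pairs 1 to 3, and the 16 astrocyte markers one of -0.04, with 5 lower in all 3 pairs. CA1 pyramidal markers summed to 2505 to 2564 CPM of RPF in vehicle and 2534 to 2714 CPM in DHPG, and interneuron markers to 2861 to 2904 and 2855 to 2958 CPM. The part of these shifts in the other lists' values was not tested.

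Oxidative phosphorylation subunits leaned higher in RPF in both genotypes. Of 76 members, 4 were higher and 0 lower at an unadjusted p under 0.05 in Tsc2+/- (2.15% of all genes were higher), and 24 were higher and 3 lower in all 3 pairs, with a median of 0.04. Atp5g1, a subunit c gene of ATP synthase, was at 204, 209 and 199 CPM in vehicle and 220, 241 and 221 CPM in DHPG (0.16 ± 0.06, SE), and Ndufb8, of complex I, was at 146, 143 and 139 CPM in vehicle and 151, 167 and 166 CPM in DHPG (0.18 ± 0.07, SE). Both had separate groups. In WT the list median was 0.10, with 22 members higher at the same p (488 of all 12877 genes). After trends with GC content and transcript length had been removed in each library, the median was 0.02 in both genotypes, and without Tsc2+/- DHPG library 3 the Tsc2+/- median was 0.02. Such removal also takes away part of any real change that genes of like length or GC content share. The 31 proteasome subunits had 12 members higher and 1 lower in all 3 pairs in RPF, with a median of 0.02 and Psmd12 at 0.14 ± 0.06 (SE). Atp6v0c, which encodes the proton-conducting subunit c of the V-ATPase, was at 1585, 1528 and 1602 CPM of RPF in vehicle and 1811, 1799 and 1748 CPM in DHPG. The 3 DHPG libraries lay above the 3 vehicle libraries (0.18 ± 0.06, SE), beside 0.13 in WT, and the 39 lysosome and V-ATPase genes had a median of 0.02 in RPF.

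Ribosomal protein mRNAs carry a 5′ terminal oligopyrimidine (TOP) tract, a C at the cap followed by pyrimidines, through which mTORC1 sets their translation. The starts of 3 of these genes are printed to show the tract, as 15 bases before and 15 from the RefSeq start (GRCm38.p6, 5′ to 3′ on the gene's strand), with the C and its unbroken run of pyrimidines in capitals.
Rps6 (chr4:86857353-86857382, minus strand): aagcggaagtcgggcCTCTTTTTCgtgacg
Rpl15 (chr14:18270972-18271001, minus strand): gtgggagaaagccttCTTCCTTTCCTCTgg
Rpl38 (chr11:114668565-114668594, plus strand): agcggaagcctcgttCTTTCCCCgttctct
They are those with the highest vehicle RPF level among the ribosomal protein genes that have a C and at least 4 pyrimidines exactly at the annotated start, read on the gene's strand only. Of 58 matched genes, 14 had this. Counted by promoter, 14 of 68 ribosomal protein promoters (20.6%) had it, against 2.51% of all 32851 RefSeq promoters. A start annotated a few bases away hides the tract, so a missing match says nothing about the mRNA.

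DHPG left the RPF level of these mRNAs close to that of vehicle. Of 78 ribosomal protein genes tested, 1 was lower at an unadjusted p under 0.05, and 26 were lower and 7 higher in all 3 pairs (13.9% and 14.2% of all genes). The RPF median was -0.03 in Tsc2+/-, with -0.04, -0.02 and -0.04 in pairs 1 to 3, and 0.03 in WT. Rps6, Rpl15 and Rpl38 had RPF log2 fold changes of 0.02 ± 0.06, -0.02 ± 0.07 and -0.03 ± 0.08 (SE). The 14 genes with the tract at the annotated start had a median of -0.01 and the 43 tested genes without it one of -0.04. The gene below the unadjusted threshold was Rpl31, with 58.0, 58.5 and 55.4 CPM in vehicle and 45.9, 47.1 and 47.8 CPM in DHPG, separate groups and a log2 fold change of -0.29 ± 0.09 (SE). Rpl31 and other ribosomal protein genes have many processed pseudogenes, and reads that fit a gene and its copy equally were not kept as uniquely mapped, so their counts are uncertain. In TE the list median was -0.05 in Tsc2+/- and 0.11 in WT, but the pairs differed in sign in both genotypes. Of 50 translation factor genes, 2 were lower (Eif3m at -0.14 and Eif4e2 at -0.25) and 1 higher (Eif4ebp2) in RPF at an unadjusted p under 0.05 (1.88% and 2.15% of all genes). Eef2, the elongation factor whose phosphorylation slows elongation, had an RPF log2 fold change of -0.01 ± 0.05 (SE), and Eef2k, its kinase gene, one of -0.07 ± 0.13 (SE).

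The long synaptic mRNAs bound by FMRP showed little difference in Tsc2+/- in any measure. Of 96 tested, 1 was higher and 3 lower in RPF at an unadjusted p under 0.05, and 25 were higher and 13 lower in all 3 pairs, with a median of 0.02. The higher one was Syt1, the calcium sensor of synaptic vesicle release (0.10 ± 0.04, SE), and the lower ones were Mbp, Grin2a and Dlgap3. Mbp is also counted in the myelin list above and encodes a myelin protein, so the name of the list does not describe every member. In RNA the median was 0.02, with 15 members higher and 3 lower in all 3 pairs, and Kif5a, which encodes a neuronal kinesin, was at 4362, 5157 and 4811 CPM in vehicle and 4709, 5624 and 5049 CPM in DHPG (0.10 ± 0.04, SE). DHPG was above vehicle in each pair, while the groups overlapped. The TE median was -0.002. In WT the medians were 0.09 in RNA, -0.08 in RPF and -0.16 in TE, with 33 members higher in RNA and 40 lower in TE at an unadjusted p under 0.05 (537 of all 14516 and 585 of all 12785 genes). The difference between genotypes had a median of 0.15 in TE, with 15 members higher and 0 lower at an unadjusted p under 0.05 (288 and 233 of all 12785 genes) and 0 called. The correlation of the TE values with GC content across all genes was weaker in Tsc2+/- (Spearman's rho -0.07) than in WT (-0.32). This is a description across genes, and the difference was not tested. The WT trend was mainly that of pair 1. Genes of lowest GC content (33.2 to 44.2%) had WT TE medians of 0.25, 0.01 and 0.03 in pairs 1 to 3. Those of highest GC content (55.8 to 70.9%) had -0.25, -0.01 and -0.02. In Tsc2+/- the medians were -0.04, 0.003 and 0.09 at lowest and 0.03, 0.002 and -0.08 at highest GC content. Pairs 1 and 3 there ran in opposite directions. The WT TE median of the FMRP targets came from pairs 1 and 3 (-0.18, -0.01 and -0.26 in pairs 1 to 3). With trends with GC content and transcript length removed in each library, the WT medians were 0.03 in RNA, -0.01 in RPF and -0.04 in TE, and the Tsc2+/- medians were -0.01, 0.02 and 0.03. For a list of long mRNAs such removal would also shrink a real shared change, and the source of the WT values was not tested.

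**Figure D5:**
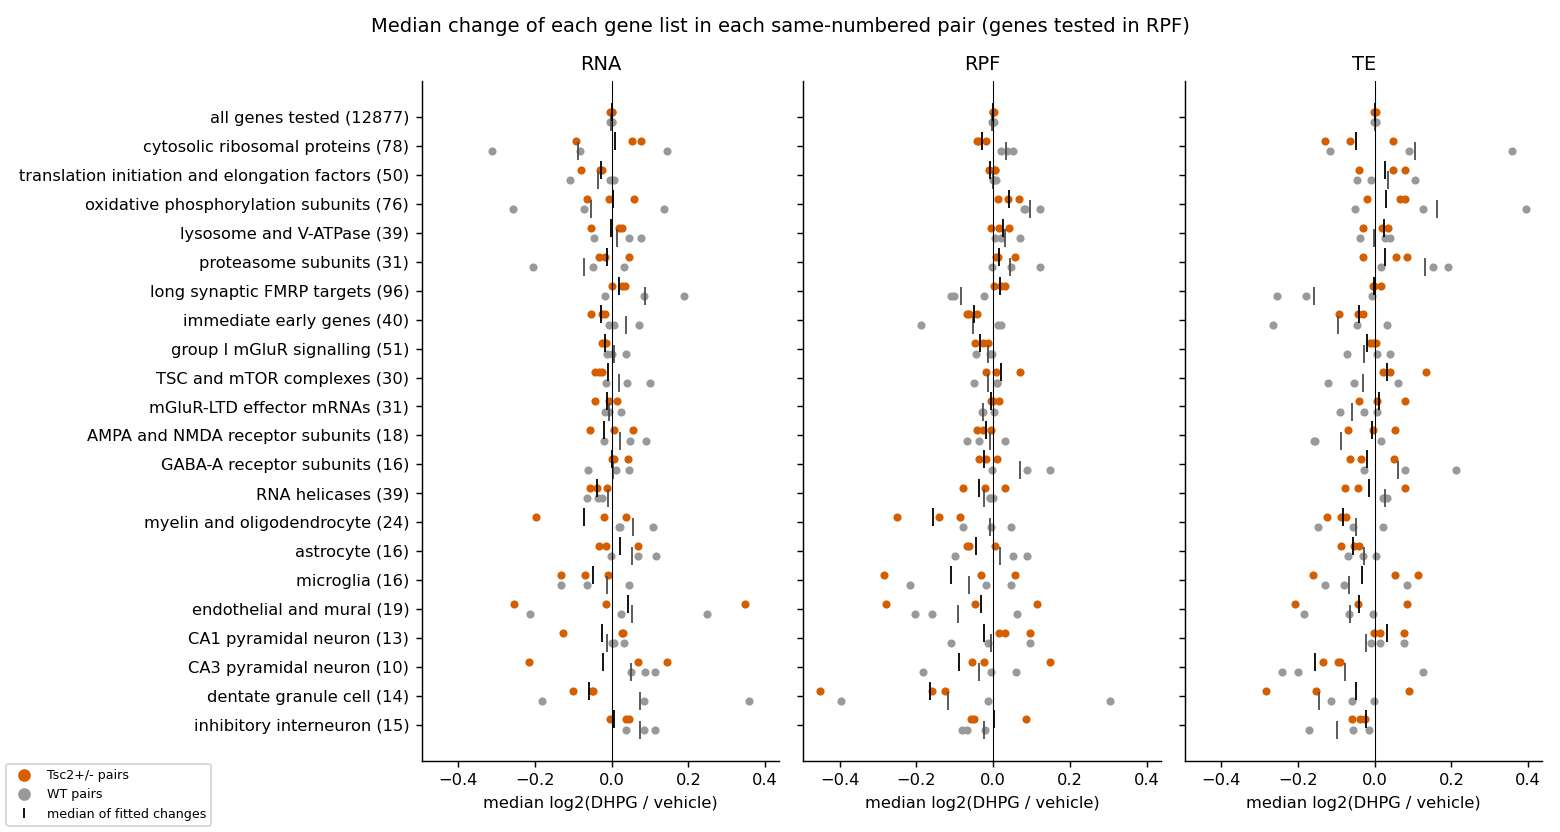
Median log2 fold change of each gene list (y axis, number of genes tested in RPF in parentheses) in RNA, RPF and TE, with 1 orange point for each Tsc2+/- pair, 1 grey point for each WT pair and a vertical bar for the median of the fitted values. The myelin list is below 0 in all 3 Tsc2+/- pairs in RPF (-0.25, -0.09 and -0.14), while most Tsc2+/- medians lie within 0.1 of 0.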

How the data were processed

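RNA and RPF were sequenced from the same lysates of hippocampal slices, each library pooling slices of several mice, with 3 libraries per genotype, treatment and assay. The authors removed adapters with cutadapt, aligned the reads to mm10 (TopHat2 and Bowtie2 are named in the submitters' notes) and counted them per gene with RSEM. The deposited values are estimated counts, rounded to whole numbers by the authors, with no normalization, and they were used as such. RNA libraries were selected for poly(A), and footprints were made with RNases A and T1 and isolated as 80S monosomes. Per the study's methods, reads that mapped to more than 1 place and duplicates by molecular identifier were removed first, so genes with near-identical copies lose reads, while reads within overlapping genes are divided by RSEM's estimate. RPF counts cover coding sequence without its ends, and RNases with base preference shape footprint counts. In the table of each assay every sample column was mapped to its sample by name.

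Genes were kept by edgeR's filterByExpr (minimum count 10) and scaled by TMM. CPM values use totals scaled by TMM, while summed marker levels use unscaled totals. Each assay was fitted over its 12 libraries with group and replicate number (the replicate block) in edgeR 4.0.16 (R 4.3.3), robust quasi-likelihood F test, two-sided, with Benjamini-Hochberg adjustment over all genes tested. Calls needed an adjusted p under 0.1, which the study used between genotypes (its DHPG thresholds were stricter). TE was the interaction of assay and group over 24 libraries, with replicate number within assay. The block follows the study, which corrected for batch, and takes the replicate number as the batch, an assumption that the sample names do not state. SE is the size of the log2 fold change divided by the root of F, and intervals are 95%. Pair differences use log2 CPM with a prior count of 2. P-values measure the spread between pooled libraries. Estimates of biological variation were 7.01% (RNA), 7.04% (RPF) and 6.83% (TE). The counting precision was limited by the RPF totals.

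Alternatives used DESeq2 1.42.0, sva 3.50.0 (ComBat), other scalings, filters, halved RPF counts, removal of GC and length trends, and left-out libraries or replicates. The fits were tested on simulated data. The members and gene lists were chosen with earlier results of these data known. Genes are named by a rule: for RNA, RPF and TE the 6 higher and 6 lower genes of smallest p with a mean of at least 5 CPM in Tsc2+/- and all 3 pairs moving alike, for each list the 2 members of smallest p per direction, and a fixed set of mGluR, mTOR and LTD genes. Other named genes were chosen after their values were seen. Positions are from RefSeq GRCm38.p6 (mm10). Gene names that had turned into dates in the RNA counts (27 of them) are not named. Some members of the lists are counted but not reported here by name.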

Additional observations from a re-analysis of the deposited data

Results flagged for a closer look

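The per-pair medians of 2 gene lists were of one sign in all 3 Tsc2+/- pairs and of the opposite sign in all 3 WT pairs, a difference between genotypes that was not itself tested. These 2 stand out of all gene lists, each with medians in RNA, RPF and TE. With so many medians and 3 pairs per genotype, some can meet this rule without any effect, and how many was not computed. Ribosomal protein mRNAs, 78 genes tested in RPF, had a median log2 fold change of -0.0296 in Tsc2+/- and 0.03 in WT. Long synaptic FMRP targets, 96 genes in RPF, had one of 0.0169 in Tsc2+/- and -0.08 in WT. With GC and length trends removed, the ribosomal medians were -0.06 in Tsc2+/- and -0.03 in WT, no longer of opposite sign, and the FMRP target medians were 0.02 and -0.01. This removal would also shrink real changes shared by genes of like length or GC content. Leaving out Tsc2+/- DHPG library 1 brought the Tsc2+/- ribosomal median to -0.001, and leaving out Tsc2+/- vehicle library 3 turned that of the FMRP targets to -0.02. Groups of 3 libraries are too small for a test of single outlying libraries.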

How the results depend on the processing

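The count of 0 called genes for DHPG in Tsc2+/- was kept without the replicate block, with other size factors or upper quartile scaling, with a minimum count of 50, with DESeq2 and at an adjusted p under 0.05, in RNA, RPF and TE. Same-numbered vehicle and DHPG libraries deviated together with r of 0.12, 0.14 and 0.13 in RNA and 0.23, 0.04 and 0.14 in RPF for replicates 1 to 3. In RPF replicate 2 was thus below 0.1. The replicate block rests on taking the replicate number as the study's batch, which the sample names do not state. The paired fit with GC and length trends removed called 1 gene in RPF (Nptxr). The fit of Tsc2+/- libraries alone called 2, 7 and 1 genes in RNA, RPF and TE, no filter 1 in RPF, a lysate block 1 in TE, and ComBat given the groups with DESeq2 2 in RNA (Slit2 and Ppp3ca). Leaving out replicates or single libraries gave 0 to 1 in RNA, 0 to 5 in RPF and 0 to 1 in TE. Without replicate 3, RPF calls were Grp, Nptxr, Plekhg1 and Nup62-il4i1. For the difference between genotypes, no filter called 1 gene in RNA and 3 in RPF, halved RPF counts 2 in TE, ComBat given the groups 1 in RPF and 7 in TE, ComBat without groups 2 in TE, and left-out libraries 0 to 2 in RNA, 0 to 2 in RPF and 0 to 3 in TE. In RPF, 14 of 25 alternative fits called at least 1 gene for this difference. The read-through gene Nup62-il4i1 was called in 11 of them, with fitted log2 values of -15.6 to -14.2. Values of this size arise where a group has counts at or near 0, and they do not measure the size of a difference. Apart from the smaller number of samples or genes in some of these fits, the cause was not tested.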
